A study of Mus musculus with 9 samples.

Results

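Il6 encodes interleukin-6, and its mRNA was read from 1 probe, ASMM10P008574, of the 60834 non-control probes on arrays of mouse aorta. The probe was chosen because its 9 log2 values equal, within 4e-07, those that the study's supplementary table lists for Il6, and the next nearest probe differed from them by at least 0.868 on some array. The accession beside that row, NM_031168, carries the symbol Il6 in the RefSeq gene table of assembly GRCm38.p6. No table that pairs probes with genes was used here, so the name rests on this match of values. The study picked Il6 for its changes on these same arrays, and its levels are therefore given here as a description, with standard errors but without p-values.

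All mice were male C57BL/6J, 8 to 10 weeks old, and each group had 3 arrays. Each array was taken to be 1 mouse, which the paper does not state. Vehicle mice carried osmotic pumps filled with PBS, and Ang II mice carried pumps that delivered angiotensin II, a peptide that constricts vessels and raises blood pressure, at 1 mg/kg/day for 2 weeks. Ang II + MK-626 mice received the same infusion together with oral MK-626 at 3 mg/kg/day. MK-626 inhibits DPP-4, the enzyme that degrades the gut hormone GLP-1. No group received MK-626 without Ang II. The Vehicle arrays and those with Ang II alone are shared with another series by the same group, and their treatment label describes berberine in place of MK-626, whereas the design text of the series assigns these arrays to the groups used here.

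Interleukin-6 is a secreted cytokine of inflammation. It binds its receptor Il6ra, and the complex joins the shared signalling chain gp130, encoded by Il6st, which activates JAK kinases and the transcription factor STAT3. Receptor shed from cells lets interleukin-6 act on cells without Il6ra, a route called trans-signalling. In the vessel wall, smooth muscle cells, fibroblasts, endothelial cells and macrophages can all make the cytokine, and Ang II is a known inducer of it. The probes of Il6ra, Il6st and the downstream genes were not named in the sources used here, so the rest of the pathway was not analysed.

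Il6 was highest in the aortae of Ang II mice, and the Vehicle and Ang II + MK-626 arrays lay lower and close to each other. Values are normalized signals on the log2 scale, where a difference of 1 is a doubling of signal, and are given in the order of replicates 1, 2 and 3. In Vehicle, Il6 had log2 values of 4.77, 5.25 and 5.07. In Ang II, the values were 7.85, 6.16 and 8.49. In Ang II + MK-626, they were 4.83, 4.59 and 4.58. All 3 Ang II arrays lay above the other 6, whereas the Vehicle and Ang II + MK-626 arrays overlapped at a single pair, Ang II + MK-626 replicate 1 and Vehicle replicate 1, which differed by 0.06.

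**Figure D1:**
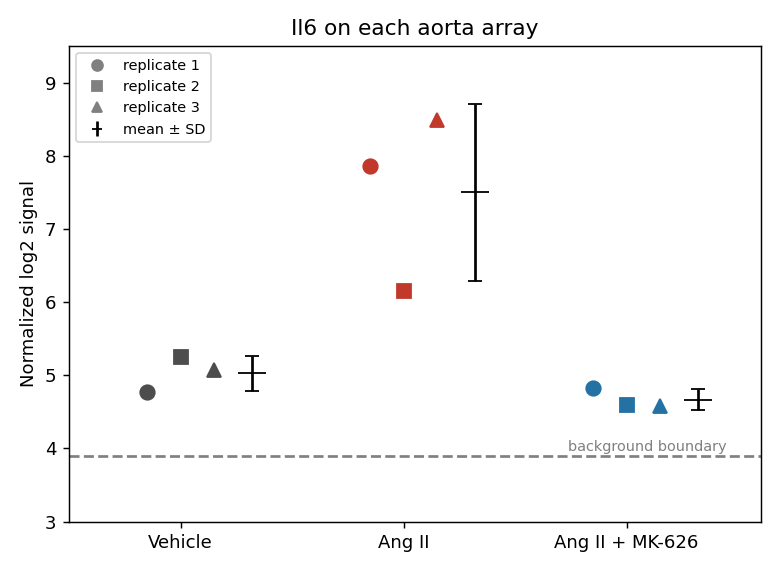
Normalized log2 signal of Il6 on each array (points, 1 shape per replicate number) with the mean ± SD of each group of 3 (black bars). The dashed line is the log2 value of 3.9 from which most probes were well above background, and all 9 points lie above it, with the Ang II arrays between 6.16 and 8.49 and the others between 4.58 and 5.25.

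The mean log2 value of Il6 in Vehicle was 5.03 ± 0.24 (SD, n = 3). The Ang II arrays averaged 7.50 ± 1.21 (SD, n = 3), and those with MK-626 added averaged 4.67 ± 0.14 (SD, n = 3). The Ang II mean was thus 2.47 higher than the Vehicle mean on the log2 scale (standard error 0.54 from limma), a 5.55-fold difference in signal. With MK-626 the mean was lower than with Ang II alone by a log2 difference of -2.83 (standard error 0.54), a 7.13-fold difference. These 2 differences share the Ang II arrays, so the spread of those arrays enters both. Both contrasts had been used to pick Il6, and nothing is read here from their size against other probes. For orientation, every Ang II array lay above every Vehicle array at 16.4% of all probes, and every Ang II + MK-626 array lay below every Ang II array at 11.3%. A probe was called changed by limma where its fold exceeded 2 and its unadjusted p was below 0.05. By this call 8.44% of probes were changed in Ang II against Vehicle, 4.79% being higher, and 4.15% were changed in Ang II + MK-626 against Ang II, 2.28% being lower.

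The neighbours in this order were Vehicle and Ang II + MK-626. The Ang II + MK-626 mean differed from the Vehicle mean by -0.36 on the log2 scale (standard error 0.54, 95% interval -1.63 to 0.91, limma over all 9 arrays). The arrays of these groups overlapped at the single pair named above. Over all probes, 34.1% did not overlap between these groups and 4.03% were called changed. The standard error is drawn largely from the Ang II arrays. With the arrays of Vehicle and Ang II + MK-626 alone it was 0.15, and the 95% interval narrowed to -0.73 to 0.012, with nearly all of it on the side of lower Il6 in Ang II + MK-626. Neither interval shows that the groups had the same level. The lowest Ang II array stood 0.91 above the highest of the other 6 arrays, Vehicle replicate 2, and 1.33 above the highest Ang II + MK-626 array.

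The size of the difference varied among the Ang II arrays. With each array taken as 1 mouse, differences between mice and between arrays cannot be told apart. Against the Vehicle mean, the Il6 signal was 7.08-fold higher in Ang II replicate 1, 2.18-fold higher in replicate 2 and 11.05-fold higher in replicate 3. Against the Ang II + MK-626 mean, the same arrays were 9.10-fold, 2.80-fold and 14.2-fold higher. All 3 lay on the same side of both means, and replicate 2 was the nearest to them. Without Ang II replicate 2, the log2 difference between Ang II and Vehicle was 3.15, and without replicate 3 it was 1.98. The corresponding differences between Ang II + MK-626 and Ang II were -3.51 and -2.34.

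The Ang II arrays differed from each other at Il6 far more than at most probes. From the lowest to the highest Ang II array the Il6 signal spanned 2.34 on the log2 scale, or 5.06-fold, compared with 0.47 among Vehicle arrays and 0.25 among Ang II + MK-626 arrays. The SD of 1.21 exceeded that of 99.4% of the 4952 other probes whose Ang II mean lay within 0.5 of that of Il6, whose median SD was 0.163. Only 29 of these probes varied more. Replicate 1 was the array farthest from the Ang II median at 19 of the 29, replicate 2 at 6 and replicate 3 at 4. At 5 of them, noticed after their values were seen, replicate 1 read at least 16.36 while the other two Ang II arrays lay below 3.9, the log2 value under which most probes were not well above background, so that a single array set their SD. Over all probes, the Il6 SD in Ang II stood above 98.5% of the rest. In Vehicle, the SD of 0.24 stood above 74.5% of the 6664 probes of like level there. In Ang II + MK-626, the SD of 0.14 stood above 22.0% of 6561 such probes. The percentiles describe these arrays and are not a test, since probes of 1 array are not independent.

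**Figure D2:**
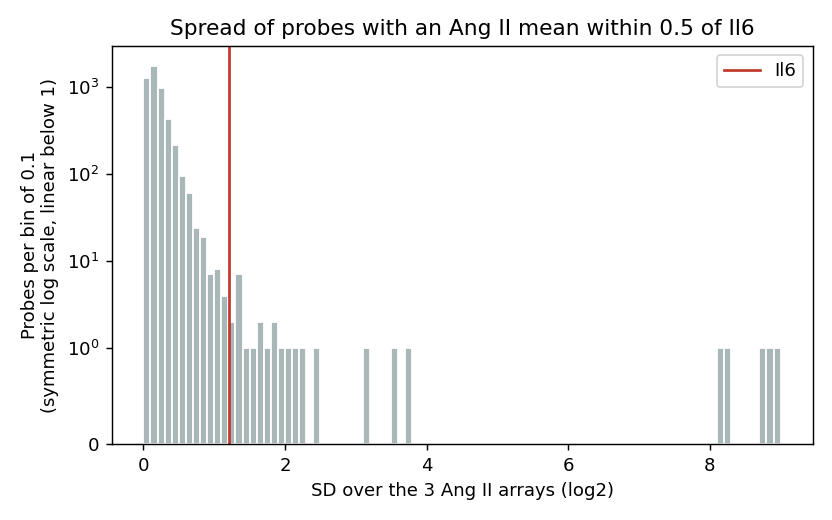
Number of probes (vertical axis, symmetric log scale) by their SD over the 3 Ang II arrays in log2 units (horizontal axis), for the 4952 probes with an Ang II mean within 0.5 of that of Il6. The red line marks Il6 at an SD of 1.21, with 29 probes to its right.

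Ang II replicate 2 accounted for much of this spread. Relative to the Ang II mean, Il6 was 0.35 higher in replicate 1, 0.99 higher in replicate 3 and deviated by -1.35 in replicate 2. The gap from replicate 2 to the next Ang II array was 1.70 on the log2 scale, and without replicate 2 the SD was 0.45, at the 94.8th percentile of probes of like level. The root mean squared deviation of replicate 2 over all probes, 0.297, lay near the 0.293 of replicate 3 and below the 0.370 of replicate 1. Replicate 2 was the lowest Ang II array at 27.2% of probes. It lay below both others by at least the Il6 gap at 42 probes (0.0690%), Il6 included, and above both by that much at 89 probes (0.146%).

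Among the 8 mRNAs that the study followed, Il6 had the largest SD over the Ang II arrays. The next was Mylk3, a kinase of cardiac myosin light chain, with an SD of 0.59, and the remaining 6 had SDs between 0.15 and 0.41. The order of the Ang II arrays at Il6, with replicate 3 highest and replicate 2 lowest, was also that of Itgav, Itga8, Npnt and Tnni3, 4 of the 6 other mRNAs whose Ang II arrays all lay at or above 3.9. Replicate 2 was lowest at 5 of these 6, Chrm2 included, and at 27.2% of all probes. Replicates 1 and 2 lay close at Itgav, with deviations of -0.07 and -0.10, and at Tnni3, with -0.10 and -0.12. The share of all probes with the full order was not counted, and nothing is read from the order. The last of the other 7, Cacna1c, lay below 3.9 on all 3 Ang II arrays, at 2.33 to 2.86, and its array order is not read. Among the 4 with this order, the largest deviations were those of Itga8, an integrin chain, with -0.42 in replicate 2 and 0.40 in replicate 3. Of the 4 with this order, 3 had a lower mean in Ang II than in Vehicle, such as Itga8 with mean log2 values of 8.71 and 10.96. Mylk3 alone had replicate 2 highest, 0.45 above its mean, and replicate 3 lowest. The spread of Il6 in Ang II was thus not shared in size by any of the other 7.

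**Figure D3:**
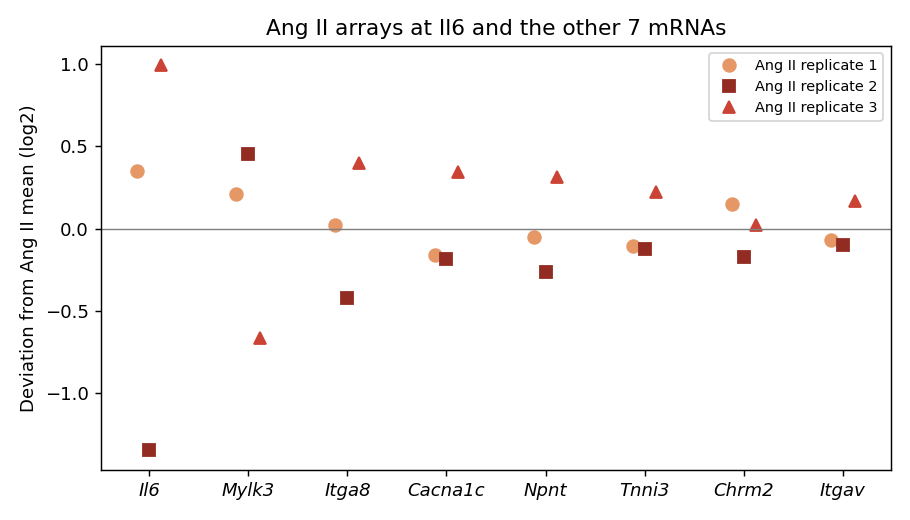
Deviation of each Ang II array from the Ang II mean in log2 units (vertical axis; 1 shape per replicate) at Il6 and the other 7 mRNAs, ordered by SD. Il6 spans from -1.35 to 0.99, and at the other mRNAs all points lie between -0.66 and 0.45.

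Tnni3, cardiac troponin I, is a marker of heart muscle and was the only member of a list of 4 cardiac markers that could be paired with a probe. Tnni3 was also higher in the Ang II group, at log2 values of 12.57, 12.56 and 12.90, against 7.55 to 7.70 in Vehicle and 6.35 to 9.23 in Ang II + MK-626. Mylk3 and Chrm2, a muscarinic receptor found in the heart, were outside that list but had the same pattern. Mylk3 had a mean log2 value of 8.36 in Ang II, against 5.39 in Vehicle and 4.92 with MK-626 added. Chrm2 had a mean of 7.25 in Ang II, against 3.30 in Vehicle and 3.14 with MK-626 added, both of which lie below 3.9. All 3 genes were chosen by the study for this pattern on these arrays. They thus moved with the same groups as Il6, and their part in the Il6 difference was not tested. Within Ang II, Tnni3 had the array order of Il6, with deviations of -0.10, -0.12 and 0.22 in replicates 1, 2 and 3. Its replicates 1 and 2 lay close to each other. The SD there was 0.19 for Tnni3 and 1.21 for Il6. With MK-626 added, Tnni3 had log2 values of 6.35, 8.11 and 9.23, and the SD was 1.45 for Tnni3 and 0.14 for Il6. Il6 spanned only 0.25 on the log2 scale there, and its order of arrays is not read. The arrays measured RNA of whole aortae, so fewer cells that make Il6 and less Il6 mRNA per cell cannot be told apart. Markers of smooth muscle, endothelium, fibroblasts and immune cells were not paired with probes here, and neither the aorta label nor a change in cell makeup could be checked through them.

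On the Ang II + MK-626 arrays, where Il6 was lowest, it was still measured above background. The scanner files of these 3 arrays hold 1 Il6 spot each, at the same grid position. Its background-subtracted processed intensity was 27.1 on replicate 1, 22.4 on replicate 2 and 17.8 on replicate 3, in the scanner's arbitrary units. The scanner software estimated the error of these intensities at 3.82, 3.56 and 3.04, or 14.1% to 17.0% of the signal. The median pixel of the spot read 45, 42.5 and 36, over a local background of 15, 16 and 14. It was thus 3, 2.66 and 2.57 times that background. The background-subtracted signal was 3.66, 3.03 and 2.23 times the pixel SD of the local background, lowest on replicate 3. The spot was thus dim on all 3 arrays.

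The flag for a signal well above background was set at the Il6 spot on 3 of 3 arrays, as was the flag for a positive and significant signal. Over all non-control probes, the flag for well above background was set at 66.7%, 64.6% and 64.6% on replicates 1, 2 and 3. The share for the other flag is not given here. No flag for saturation, for a non-uniform spot or for an outlying spot was set. On replicate 2 the local background of the spot was flagged as an outlier of its population, as it was for 3.12% of non-control spots there. Of the probes within 0.1 of the Il6 value on each array, 1320 to 1347 in number, 100% were flagged well above background. Of 308 negative control spots per array, 0 on replicate 1 and 1 on each of replicates 2 and 3 had a background-subtracted signal as high as Il6.

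**Figure D4:**
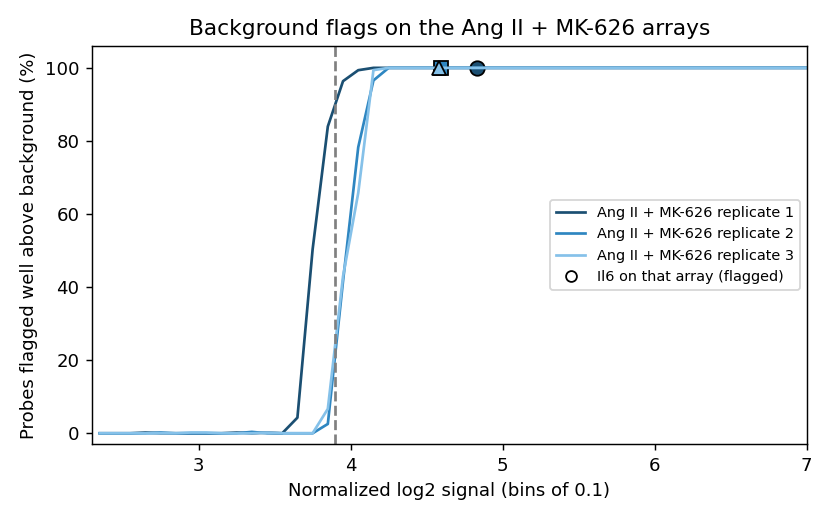
Share of non-control probes flagged well above background (vertical axis, %) by normalized log2 signal in bins of 0.1 (horizontal axis) on the 3 Ang II + MK-626 arrays, with Il6 marked on each curve. The dashed line is the boundary at 3.9, and Il6 lies to its right at 4.58 to 4.83, where all curves have reached 100%.

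The boundary was the log2 value from which at least 50% of probes carried the flag, 3.9 as the mean of 3.7, 4.0 and 4.0 on the 3 arrays. The Ang II + MK-626 mean of Il6 lay 0.77 above it. At a share of 90% the boundary was 4.03, and the lowest Il6 value, 4.58, was above that too. Flags of the Vehicle and Ang II arrays were not analysed here. If the same boundary held for them, the Vehicle values of Il6 lay 0.87 to 1.35 above it and the Ang II values 2.26 to 4.59 above it. On that basis neither fold difference given above had a group at or below the boundary.

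Normalization narrowed the differences among the Ang II + MK-626 arrays at Il6. The processed intensity differed 1.52-fold between replicates 1 and 3, a log2 range of 0.60, and the normalized values had a log2 range of 0.25. The normalized log2 value exceeded the log2 intensity by 0.07 on replicate 1, 0.11 on replicate 2 and 0.42 on replicate 3. Probes of the same level on each array were moved by nearly the same amounts, with medians of 0.07, 0.11 and 0.42, as follows from quantile normalization. Replicates 1 and 2 had been read in the same scan and replicate 3 in another, and the scans of the other groups are not known here.

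The probes with the pattern nearest to that of Il6 were sought among 39513 others with a mean at or above the boundary, by Pearson r over the 9 arrays. The highest were ASMM10P052982, ASMM10P015616 and ASMM10P039995, each with r = 0.99. Probe ASMM10P015616 had mean log2 values of 9.20 for Vehicle arrays, 10.86 for Ang II arrays and 8.87 for arrays with MK-626, and its Ang II arrays had 11.06, 9.91 and 11.60. In all 3 probes Ang II replicate 2 was the lowest Ang II array and replicate 3 the highest, as in Il6, over a smaller range. After the group means were taken away, their deviations correlated with those of Il6 at r = 0.95, 0.94 and 0.95. The probes were picked by r over these same arrays, and Il6 varied within groups mainly in Ang II. This order and these values thus follow largely from the choice. The most opposite probes were ASMM10P042263, ASMM10P056748 and ASMM10P038839, with r of -0.99, -0.98 and -0.97. The genes of these 6 probes are not named in the sources used here.

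**Figure D5:**
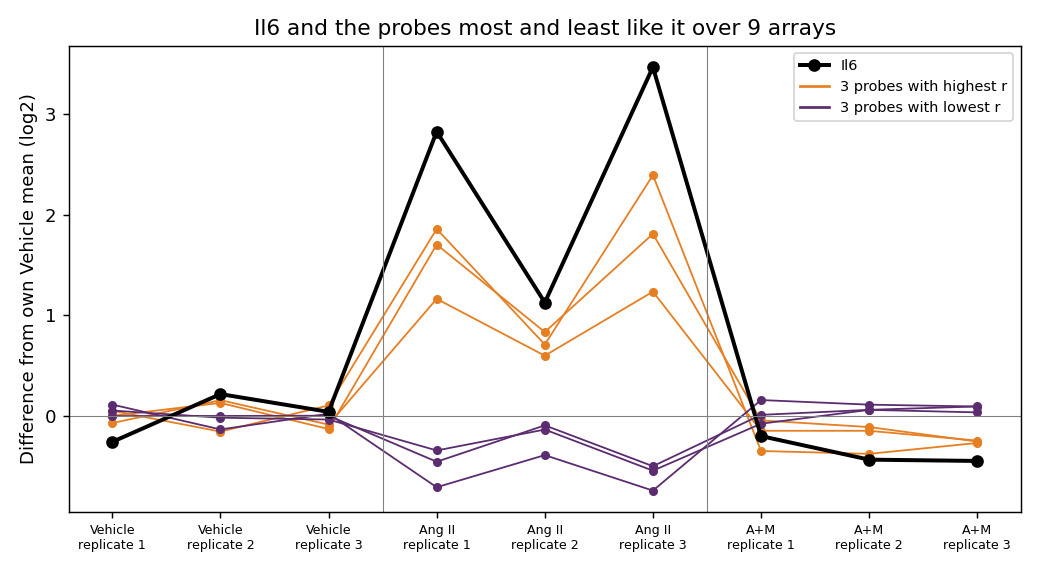
Log2 difference from the probe's own Vehicle mean (vertical axis) on each of the 9 arrays (horizontal axis; A+M is Ang II + MK-626) for Il6 (black), the 3 probes with the highest r (orange) and the 3 with the lowest (purple); lines only join the arrays of a probe. Il6 reaches 3.47 on Ang II replicate 3 and 1.13 on replicate 2, and the orange probes dip at the same array.

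An r of at least 0.9 with Il6 was found at 240 of these probes (0.607%), and an r of -0.9 or lower at 176 (0.445%). All points come from the same 9 arrays, whose group differences and Ang II replicates enter every such value, and the probes were picked as the extremes of many. Of the other mRNAs the study followed, Chrm2 had r = 0.89 with Il6, Tnni3 0.86 and Mylk3 0.80. Itgav and Itga8, integrin chains, had -0.85 and -0.77, Npnt, a ligand of Itga8, had -0.79, and Cacna1c, a calcium channel, had -0.81. The values for Chrm2 and Cacna1c rest in part on signals below the boundary, those of Chrm2 on 5 of the 6 Vehicle and Ang II + MK-626 arrays and those of Cacna1c on all 3 Ang II arrays. Like Il6, these 7 were chosen by the study for changes with Ang II and with MK-626 on these arrays, 4 of them for changes opposite to those of Il6, and also from its co-expression network and earlier literature. The signs of these values therefore follow from the choice.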

How the data were processed

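RNA of whole aortae, taken as 1 mouse for each of 9 arrays, was labelled with Cy3 and hybridized to 1-colour Agilent arrays. The authors extracted spot intensity with Agilent Feature Extraction 11.0.1.1, applied quantile normalization in GeneSpring GX and deposited log2 values of 60902 probes, of which 68 control probes were left out. Scanner intensity and flags, as deposited, were read for the 3 Ang II + MK-626 arrays. Signal over background is the depth of an array, and precision is limited by the 3 arrays in a group.

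One mean per group was fitted with limma 3.58.1 in R 4.3.3 over 60834 probes and 9 arrays, without a pseudocount or filter, and was tested on simulated data. Likeness is Pearson's r. Python 3.11.15, numpy 2.4.6, pandas 2.3.3 and matplotlib 3.10.9 made the other values. Alternatives were the replicate number as a block, cyclic loess, a variance trend, pairs of groups alone, group medians, other thresholds and windows, one-way ANOVA, and leaving out arrays. The text names Il6, the other 7 mRNAs of the same table, and the 3 probes most and least like Il6. The member, lists and rules were chosen with earlier results of these data known. Lists of IL-6 pathway genes and of cell type markers were planned, and only Tnni3 among them and Il6 itself had a named probe. The coordinates of Il6 are not printed, since the array design names another build (mm9) than the gene table. No p-value is given for Il6. Its standard errors and 95% intervals are limma's.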

Additional observations from a re-analysis of the deposited data

How the results depend on the processing

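The Il6 differences kept their direction under all alternatives and moved by less than the spread between arrays. Cyclic loess gave 2.57 for Ang II minus Vehicle and -2.89 for the arrays with MK-626 minus those with Ang II alone. The arrays with MK-626 minus Vehicle gave -0.32, and its largest shift of an array median was 0.110 (log2), in Ang II replicate 1. Group medians gave 2.78, -3.26 and -0.48. When arrays were dropped singly, the differences lay between 1.98 and 3.15, between -3.51 and -2.34, and between -0.49 and -0.25. The ends of the first and second ranges came from leaving out Ang II replicates 2 and 3, and those of the third from leaving out Vehicle replicates 1 and 2. The Il6 SD in Ang II was 1.23 under cyclic loess and between 0.45 and 1.65 with each Ang II array left out, and its percentile among probes of like level lay between 94.8 and 99.8. Other windows, the range in place of the SD and a filter on dim probes left the percentile between 99.4 and 99.5. With the flag for a positive and significant signal, the boundary fell to 2.4 and the Ang II + MK-626 mean lay 2.27 above it, in place of 0.77, because that flag is the weaker criterion.

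The replicate numbers did not pair the arrays. Deviations of same-numbered arrays correlated, over probes, between -0.12 and 0.04. In a fit with a replicate block, the Il6 differences were unchanged at 2.47, -2.83 and -0.36, their standard error was 0.54, and 5038, 2477 and 2381 probes were changed in place of 5135, 2524 and 2452. These counts stayed within 1.5 times under the alternatives that kept all arrays. The low for Ang II against Vehicle was 4283, out of only the 39514 probes with a mean at or above the boundary, in place of 60834. The lows for the other comparisons were 1876 and 1794, after Benjamini-Hochberg adjustment. With each array left out the counts lay between 4603 and 5585, 2423 and 3215, and 2155 and 2993. For the 6 probes most and least like Il6, Spearman's rho was 0.85 to 0.95 and -0.90 to -0.83. Signal over background was measured in Ang II + MK-626 alone, where the Il6 spot is dim, and was not analysed for Vehicle and Ang II.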
